A study of Mus musculus with 4 samples.

Results

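The 300 regions described here are the densest distal clusters of H3K27ac peaks in the control culture of a pair of female mouse neural stem cell cultures. H3K27ac, acetylation of histone H3 at lysine 27, marks active promoters and enhancers. The members were chosen from the control list alone, in a way that resembles the usual definition of super-enhancers. Peaks on chromosomes 1 to 19 within 5 kb of either end of a protein-coding gene were dropped, and the remaining distal peaks were joined where the gap was at most 12500 bases. Each joined region was scored by the sum, over its peaks, of fold enrichment multiplied by peak width in kb, and the 300 highest of 11688 joined regions were kept. Deleted peaks were then counted in the same intervals.

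The cultures were profiled by ChIP-seq, with 1 ChIP library and 1 whole-cell-extract input library each, so every difference between them rests on 1 library a group and has no replicate check. The deleted culture was titled Smchd1 del/del and the control culture Smchd1 fl/fl. Both came from lines made from E14.5 Smchd1 del/fl embryos, with a maternal X of 129 origin carrying Xist deltaA and a paternal Castaneus X, and the strain field gives C57BL/6. Deleted cells had been transduced with the MSCV-Cre-puro retrovirus, given puromycin 24 h later and harvested on day 7, while control cells were left untransduced. The effects of deletion, of viral transduction and of selection cannot be told apart, and both cultures carry 1 Smchd1 allele that was already deleted in the embryo, per the growth protocol and the genotype field. Other labels disagree with the titles: the antibody field names H3K27me3, the genotype field of the control ChIP reads del/fl, and that of the control input reads del/del.

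Super-enhancers are stretches of clustered enhancers with unusually high enhancer marks, and in many cell types they lie beside the genes that define the cell. Neural stem cells, the progenitors of neurons and glia, are kept by transcription factors of the Sox, Nfi, Pou and basic helix-loop-helix families. Smchd1 encodes a chromatin protein that acts in X inactivation and at some imprinted and protocadherin clusters.

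All 3 genomic copies of the microRNA miR-9 lay inside members, in those ranked 1, 7 and 124 by score. MiR-9 is a brain-enriched microRNA that acts in the balance between neural progenitors and their differentiation. It was singled out after the members had been seen. The mature strands are shown from RefSeq (GRCm38.p6), 5′ to 3′, with the seed, bases 2 to 8, in capitals. Both arms are the same at all 3 copies, and miR-125b-5p is set beside them because 1 of its 2 copies, Mir125b-1, also lay in a member.
mmu-miR-9-5p: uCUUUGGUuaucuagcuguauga
mmu-miR-9-3p: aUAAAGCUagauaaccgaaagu
mmu-miR-125b-5p: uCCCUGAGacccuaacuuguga

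The 3 hairpins differ only outside the mature arms, which are in capitals in the following. They lie on the plus strand at chr3:88215598-88215686 (Mir9-1), chr13:83738814-83738885 (Mir9-2) and chr7:79505264-79505353 (Mir9-3).
Mir9-1: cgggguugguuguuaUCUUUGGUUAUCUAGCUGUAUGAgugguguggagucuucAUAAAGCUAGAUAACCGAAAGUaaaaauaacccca
Mir9-2: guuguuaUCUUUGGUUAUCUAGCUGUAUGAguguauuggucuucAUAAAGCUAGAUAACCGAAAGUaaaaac
Mir9-3: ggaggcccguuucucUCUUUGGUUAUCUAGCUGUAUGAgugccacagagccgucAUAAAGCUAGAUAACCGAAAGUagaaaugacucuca

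Promoters of noncoding genes were inside members as well, since the rule leaves out peaks at the ends of coding genes only. Some other promoter windows in members were not near an end of a long noncoding RNA gene either, as given with the motifs below. The 250 bases before the RefSeq start are shown, 5′ to 3′ on the strand of the gene, for 6 noncoding genes of members ranked 1, 4, 7, 15, 80 and 124, chosen after the members had been seen. Capitals mark a match to a searched motif. The windows are chr3:88214232-88214481 on the plus strand (Gm3764, beside Mir9-1), chr13:83721131-83721380 on the plus strand (C130071C03Rik, in the region of Mir9-2), chr7:79499776-79500025 on the plus strand (Mir9-3hg, the host gene of Mir9-3), chr6:50775865-50776114 on the plus strand (C530044C16Rik), chr19:5802673-5802922 on the minus strand (Malat1) and chr1:42713455-42713704 on the minus strand (Pantr2, beside Pou3f3).
Gm3764: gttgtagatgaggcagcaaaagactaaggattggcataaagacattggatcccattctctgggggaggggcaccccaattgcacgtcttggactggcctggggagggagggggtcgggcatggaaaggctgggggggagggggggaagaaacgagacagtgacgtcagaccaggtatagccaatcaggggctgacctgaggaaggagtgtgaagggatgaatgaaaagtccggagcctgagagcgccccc
C130071C03Rik: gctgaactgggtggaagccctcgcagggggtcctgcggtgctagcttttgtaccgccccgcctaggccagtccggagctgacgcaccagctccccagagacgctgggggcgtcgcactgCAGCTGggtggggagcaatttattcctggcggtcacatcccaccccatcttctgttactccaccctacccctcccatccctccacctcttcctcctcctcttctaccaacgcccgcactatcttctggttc
Mir9-3hg: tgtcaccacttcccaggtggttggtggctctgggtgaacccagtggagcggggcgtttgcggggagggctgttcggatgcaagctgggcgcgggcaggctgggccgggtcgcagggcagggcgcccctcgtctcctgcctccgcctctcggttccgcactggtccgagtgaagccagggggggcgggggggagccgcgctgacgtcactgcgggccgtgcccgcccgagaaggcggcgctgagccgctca
C530044C16Rik: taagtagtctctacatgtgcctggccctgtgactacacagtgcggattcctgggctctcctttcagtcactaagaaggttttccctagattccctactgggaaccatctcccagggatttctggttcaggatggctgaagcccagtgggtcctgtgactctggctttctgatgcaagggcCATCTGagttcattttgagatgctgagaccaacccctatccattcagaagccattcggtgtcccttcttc
Malat1: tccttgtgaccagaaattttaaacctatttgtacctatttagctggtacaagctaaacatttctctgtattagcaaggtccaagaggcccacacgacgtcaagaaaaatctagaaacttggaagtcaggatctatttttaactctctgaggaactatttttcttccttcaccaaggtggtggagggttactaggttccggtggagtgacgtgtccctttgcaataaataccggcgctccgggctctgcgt
Pantr2: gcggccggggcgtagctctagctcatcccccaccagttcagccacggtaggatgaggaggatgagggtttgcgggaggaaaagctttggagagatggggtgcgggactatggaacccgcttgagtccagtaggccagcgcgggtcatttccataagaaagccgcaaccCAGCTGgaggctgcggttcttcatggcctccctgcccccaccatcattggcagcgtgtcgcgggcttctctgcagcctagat

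At the window of Gm3764 the peak had a fold enrichment of 21.3 in deleted cells and 22.0 in control cells. At that of Pantr2 it was 17.5 and 17.4, at C130071C03Rik 14.6 and 18.6, and at Malat1, an abundant nuclear long noncoding RNA, 15.3 and 14.9. The window of C530044C16Rik had 9.86 and 9.08, and that of Mir9-3hg had only weak peaks of 4.37 and 4.04. All 6 windows thus had a peak in both lists. Fold enrichment is the authors' value for a peak, its pileup relative to the local background of the input of the same culture, and it is not scaled between the 2 libraries.

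The authors' list held 90483 peaks on chromosomes 1 to 19 in the deleted culture and 62955 in the control culture, and 55465 and 35694 of these were distal. Filtered ChIP depth was 54194233 tags for deleted and 42277672 tags for control cells, a ratio of 1.28, with inputs of 77101643 and 80601280 tags. The distal peak ratio of 1.55 (95% interval 1.53 to 1.57, counting error only, as for all intervals here) stands beside this depth ratio, and the part of depth in it was not tested. By the same joining the deleted list gave 15954 regions and the control list 11688, of which 47.6% and 50.2% were single peaks.

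The score was concentrated in few regions. In the control list the 300 members were 2.57% of joined regions, held 7234 or 20.3% of distal peaks and carried 32.5% of the summed score. The highest score, in fold enrichment times kb, was 436 and that of the member ranked 300 was 35.1. Around this limit the scores were close: just inside it were the region of Plpp3, with 35.2 and with 11 deleted and 13 control peaks, and that of Prr5l, with 35.1 and with 18 and 17 peaks. Just outside it were the region of Adcyap1r1, with 35.1 and with 12 and 13 peaks, and that of Prcp, with 35.0 and with 23 and 20. The curve had no gap at this rank, and the point where its slope equals the diagonal, a usual limit for super-enhancers, would have kept 726 regions of the deleted list and 499 of the control list.

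**Figure D1:**
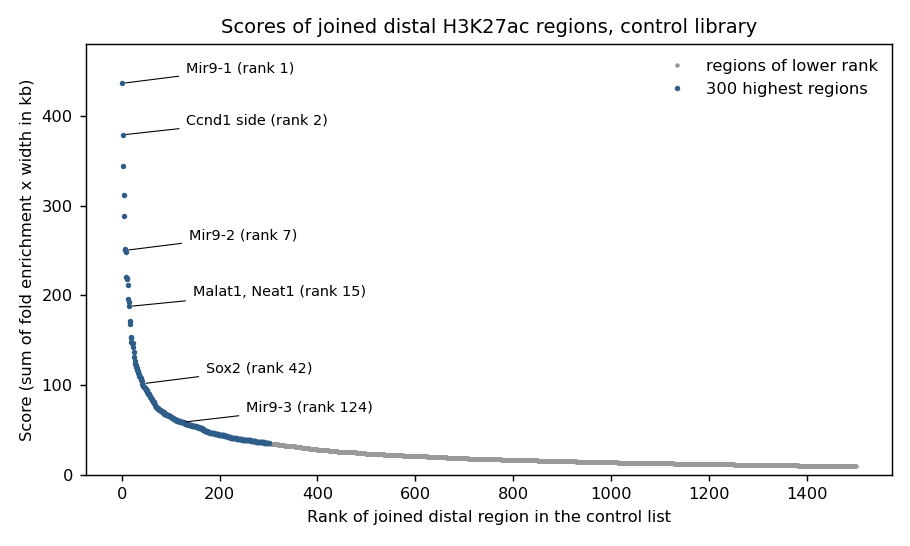
Score of joined distal regions in the control list (y axis, sum of fold enrichment times width in kb) against their rank (x axis), with 1 point a region. The 300 members (blue) fall steeply over the first ranks and pass without a gap into the regions of lower rank (grey), near 35.1.

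Members were of very different shape. They held a median of 22 deleted peaks (range 1 to 126, quartiles 15 and 32) and 20 control peaks (2 to 127, quartiles 14 and 29). Their median length was 40.1 kb, from 4.01 kb at Pax6, the eye and forebrain transcription factor, to 242.5 kb at Rptor, a subunit of the mTORC1 kinase complex. Of the 300 members 22 were longer than 100 kb, 46 were at most 20 kb, 20 held 50 or more control peaks and 10 held 5 or fewer. Those 10 were few broad peaks in place of a chain of small ones, among them the regions of Tnrc18 (1 deleted and 2 control peaks), Sox6 (2 and 3) and Pax6 (4 and 3). Deleted peaks covered a median of 33.6% of a member and control peaks covered 26.9%. The highest share covered by control peaks was 89.9%, at Sox6.

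Most members overlapped a coding gene, although they are by rule away from gene ends. Of the 300, 206 overlapped the body of a coding gene, or 68.7%. The share was 69% in the 300 regions ranked next and 61.5% in all joined regions. The other 94 members lay between genes, at a median of 13.2 kb from the nearest coding gene end and at most 427 kb from it. The 300 members were linked to 281 coding genes by overlap or, failing that, by proximity. Arhgap26, Atg7, Nav2, Nfia and Zmiz1 had 3 members each, the most of any gene, and 60 members lay within 50 kb of another member, so members are not independent of one another.

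Chromosome 2 held 30 members, chromosomes 4 and 11 held 27 each, and chromosome 14 held 8. The ratio of deleted to control peaks in members ranged from 0.933 on chromosome 1 to 1.18 on chromosome 12.

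The member of highest score lay between Mef2d, a transcription factor gene of muscle and neurons 19.9 kb away, and Rhbg, an ammonium transporter gene 6.01 kb away (chr3:88191985-88236860). It held 23 deleted and 23 control peaks, over 34.3 kb and 32.8 kb. Its highest fold enrichments were 23.3 and 22.6, and 22 of the 23 control peaks were overlapped by a deleted peak. This region was thus much the same in both libraries in number, length and height of peaks. The Mir9-1 hairpin sat in a deleted peak of 3454 bases with a fold enrichment of 21.3 and a control peak of 2990 bases with 22.0.

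The region of Mir9-2, ranked 7 (chr13:83713312-83749680), lay 46.2 kb from Mef2c, a transcription factor gene of neurons and muscle. It held 22 deleted and 24 control peaks covering 26.5 kb and 24.3 kb, and no deleted peak in it missed a control peak. Around the hairpin the deleted peak had a fold enrichment of 11.9 and the control peak 11.7. Mir9-3, ranked 124 (chr7:79499629-79537128) and nearest to Polg, the catalytic subunit of mitochondrial DNA polymerase, had 24 deleted and 20 control peaks covering 11.8 kb and 9.90 kb. Its hairpin peak had 11.1 and 11.9. At all 3 copies the hairpin thus lay within a peak of both lists. The member of Mir125b-1, ranked 189, had 5 deleted and 5 control peaks, and its hairpin peak had 8.62 and 10.1.

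**Figure D2:**
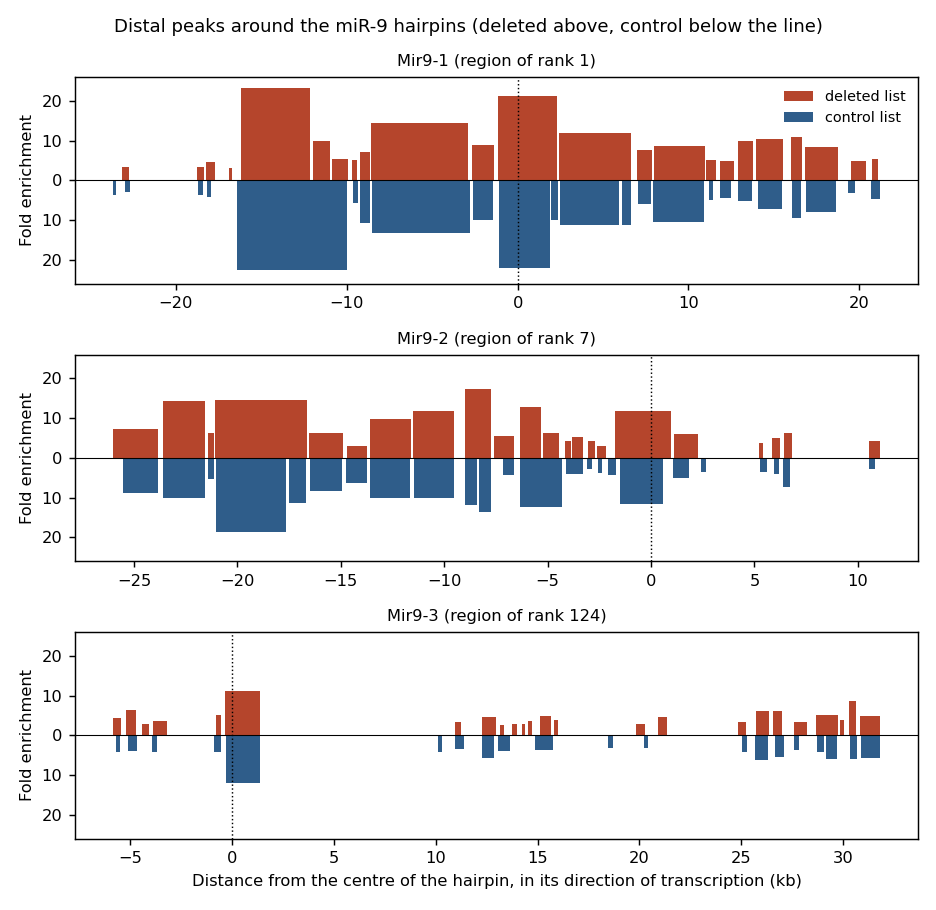
Distal peaks of the 3 miR-9 members as boxes over their length (x axis, distance in kb from the hairpin centre in its direction of transcription), with fold enrichment upward for the deleted list (red) and downward for the control list (blue). The hairpin (dotted line) lies in a peak of both lists in each panel, with 21.3 and 22.0 at Mir9-1, 11.9 and 11.7 at Mir9-2 and 11.1 and 11.9 at Mir9-3.

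In all, 15 of the 919 RefSeq hairpins on chromosomes 1 to 19 lay inside a member, or 1.63%, in 11 members, while 61 lay in any joined region. Members made up 14.6 Mb of the 64.6 Mb in joined regions, or 22.7%. Their part of the hairpins in joined regions, 15 of 61, was thus near their share of length. Of the 15, 3 are the miR-9 copies, and 3 others overlap or neighbour them in the table (Mir3093, Gm25641 and Gm51268).

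The other regions of highest score lay at genes of several kinds. The member ranked 2 (chr7:144965020-145170095) lay between Ccnd1, which encodes the G1 cyclin D1 and is 25.2 kb away, and Tpcn2, an endolysosomal cation channel gene 11.5 kb away. It had the most control peaks of any member, with 117 deleted and 127 control peaks covering 74.3 kb and 69.1 kb. Of the control peaks 98 were overlapped by a deleted peak. The member ranked 3 (chr2:30586530-30789709) overlapped Cstad and 8 long noncoding RNA genes and had 123 deleted and 110 control peaks, covering 75.4 kb and 56.99 kb. The member ranked 4 (chr6:50675389-50823568), nearest to the neuropeptide gene Npvf, had 89 and 82 peaks over 65.8 kb and 50.2 kb.

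Ranks 5, 6 and 8 differed in direction by number. The region in Vac14, a scaffold of a phosphoinositide kinase complex (rank 5, chr8:110626318-110713827), had 53 deleted and 61 control peaks, yet deleted peaks covered 54.0 kb and control peaks 48.7 kb. The region nearest to Zfp36l2, an RNA-binding protein of mRNA decay (rank 6, chr17:83937346-84122922), had 126 deleted and 96 control peaks over 71.2 kb and 46.4 kb. In the region of Septin9, a cytoskeletal GTPase (rank 8, chr11:117233206-117357187), 78 deleted and 59 control peaks covered 54.4 kb and 38.6 kb. Longer coverage in the deleted list was common to these 3, whichever list had more peaks.

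Of the regions ranked 10 to 12, that of Kcnd3, a voltage-gated potassium channel gene, had 96 deleted and 88 control peaks over 50.9 kb and 42.9 kb. That of Arhgap12, a GTPase-activating protein gene, had 64 and 67 peaks over 40.1 kb and 39.6 kb. That of Myh9, the heavy chain of a non-muscle myosin, had 30 and 34 over 40.3 kb and 29.6 kb. Kcnd3 alone of these 3 had more peaks in the deleted list. The region of Malat1 and Neat1, a pair of abundant nuclear long noncoding RNAs next to Frmd8, ranked 15 with 43 deleted and 37 control peaks. It is named here for its noncoding genes, after its values had been seen.

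Members were linked to neural transcription factors more often than joined regions at large. Of the 53 coding genes in that list 16 were linked to a member, or 30.2%, against 281 of all 20665 coding genes, or 1.36%. Such genes were often linked to a joined region of any score too, at 81.1% against 29.1%. The 21 members concerned were 7% of members, and 2.15% of all joined regions were linked to the list. Among the 16 were Id3, Nfia, Nfib, Nfix, Nkx2-2, Npas3, Olig1, Olig2, Pax6, Pou3f3, Sox2, Sox6, Sox8, Tcf4 and Zeb1. The list was drawn up with earlier results of these data known, so its count is a description and not independent evidence.

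The longest of these regions lay in Nfia and Nfix, nuclear factor I genes that act in progenitors and in the onset of gliogenesis, and beside Id3. In Nfix (rank 9, chr8:84717135-84796195) 55 deleted and 52 control peaks covered 37.7 kb and 29.9 kb. In Nfia (rank 19, chr4:97606587-97697394) 60 deleted and 52 control peaks covered 37.3 kb and 30.3 kb. The region of Id3, an inhibitor of basic helix-loop-helix factors 5.67 kb away (rank 16, chr4:136068521-136138156), had 48 deleted and 37 control peaks over 33.2 kb and 27.1 kb. In these 3 members the deleted list had more peaks and more covered bases. The region of Nfib, another nuclear factor I gene (rank 100), was only 10.9 kb long, and its 7 deleted and 9 control peaks covered 7.33 kb and 6.49 kb. The other members of Nfia were short too, with 7 deleted and 8 control peaks at rank 155 and 7 and 7 at rank 187.

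Tcf4, a basic helix-loop-helix partner of proneural factors, held 2 members on chromosome 18. They had 19 deleted and 16 control peaks (rank 36, chr18:69499235-69528128) and 25 and 22 (rank 46, chr18:69558134-69598904). Beside Sox8, a Sox factor of the glial lineage (rank 52, chr17:25509113-25559735), there were 34 deleted and 32 control peaks, over 23.4 kb and 16.9 kb. The number of peaks differed by at most 3 in each of these regions.

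Sox2 and Pou3f3 went the other way in peak number. Beside Sox2, the transcription factor required for neural stem cell maintenance (rank 42, chr3:34657860-34671911, under 6 kb from the gene, over Sox2ot), there were 4 deleted and 8 control peaks. The deleted peaks covered 9.70 kb and the control peaks 9.80 kb, and their highest fold enrichments were 14.6 and 14.1. The deleted list thus had fewer and broader peaks over nearly the same length. Pou3f3, a POU factor of neural progenitors, had a member on each side. That at chr1:42679397-42690563 (rank 72) had 3 deleted and 9 control peaks over 6.04 kb and 7.90 kb. That at chr1:42706003-42718912 (rank 80) had 5 and 9 peaks over 7.99 kb and 7.61 kb. Of the 9 control peaks at the region ranked 72, 5 were overlapped by a deleted peak.

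Of 22 neural stem cell and radial glia genes, 5 were linked to a member, or 22.7%, with 72.7% linked to any joined region. Msi2, an RNA-binding protein of stem cells, held 2 members, with 54 deleted and 44 control peaks at rank 44 (chr11:88515714-88609556) and 25 and 21 at rank 244. The region of Cspg4, the NG2 proteoglycan of glial progenitors (rank 95), had 19 deleted and 16 control peaks, and that of Slc1a3, a glutamate transporter of radial glia (rank 145), had 17 and 14. These 4 members had more peaks in the deleted list. Ptprz1, a receptor phosphatase of radial glia 71.8 kb from its member (rank 173), had 8 deleted and 13 control peaks over 7.80 kb and 7.78 kb. Mki67, a proliferation marker, is linked by proximity only, at 283 kb (rank 98, 34 and 36 peaks).

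Of 24 Notch, Bmp, Wnt and Hedgehog genes 2 were linked, or 8.33%, while 87.5% were linked to some joined region. Counted by distance alone, 5 of the 24 lay within 100 kb of a member, or 20.8%, against 5.18% of all coding genes. The further genes were Lrp6, Notch1 and Wnt7b. In Ptch1, the Hedgehog receptor (rank 160), 12 deleted and 14 control peaks covered 8.12 kb and 6.87 kb. Beside the ligand gene Wnt7a (rank 181) 20 and 19 peaks covered 12.6 kb and 8.64 kb. Few markers of other cell types were linked to a member, but with 1.36% of all coding genes linked, a count of 0 in lists this short says little. Aldh1l1 was the 1 linked gene of 10 astrocyte genes, and 0 of 10 oligodendrocyte, 16 neuron, 7 microglia, 8 fibroblast, 6 endothelial and 7 pluripotency genes were linked. None of 25 imprinted genes in the table and 9 transcription co-activators was linked either. Within 100 kb of a member, however, lay 2 of the 10 oligodendrocyte genes (20%, Myrf and Sox10) and 2 of the 25 imprinted genes (8%, Mest and Nnat). So did 1 of the 9 co-activators, Kmt2d, while the astrocyte count stayed at 1. By this rule too, the count was 0 for the neuron, microglia, fibroblast, endothelial and pluripotency genes. The link goes to overlapped genes first: the member ranked 32 (36 deleted and 36 control peaks) overlapped Pick1 and ended 6.23 kb from Sox10, an oligodendrocyte lineage factor, which therefore did not count. Some of these genes had a joined region of lower score, as 4 of the 10 oligodendrocyte and 7 of the 16 neuron genes did.

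**Figure D3:**
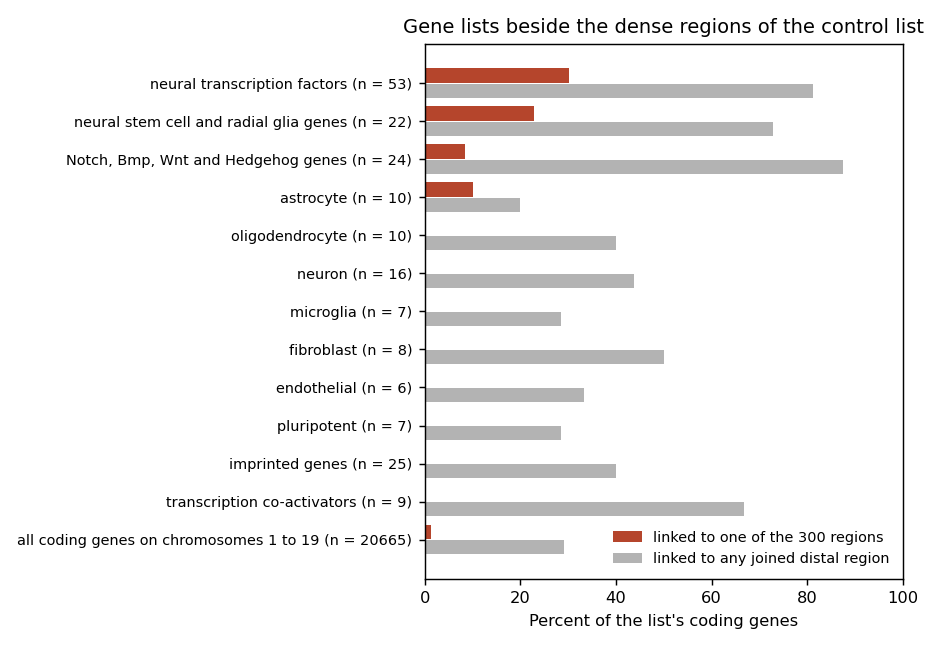
Share of each list's coding genes (x axis, percent) linked to one of the 300 members (red) or to any joined distal region of the control list (grey), with n the number of genes. Neural transcription factors have 30.2% and neural stem cell genes 22.7% in members, against 1.36% of all coding genes in the bottom row.

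Members held slightly more deleted than control peaks, as did other dense regions. Deleted peaks in members numbered 7870 and control peaks 7234, or 1.09 deleted peaks for each control peak (1.05 to 1.12). In the 300 regions ranked next below the members, the counts were 3766 and 3480, a ratio of 1.08, and the 631 joined regions with 10 or more control peaks also had 1.09. In all 11388 other joined regions the counts were 24724 and 28460, a ratio of 0.869, and a further 22871 deleted distal peaks lay outside every control region. The choice of regions from the control list bears on it directly: with 300 regions chosen from the deleted list in the same way, the counts were 9916 and 7825 and the ratio 1.27. When the deleted list was cut to the length of the control list by q-value, the members held 6038 deleted and 7234 control peaks and the ratio was 0.835, against 0.831 in the next 300 regions and 0.641 in all other joined regions. Among peaks of fold enrichment 5 or more it was 0.945 in members (1733 and 1834 peaks), 0.981 in the next 300 and 1.03 in all others. With a gap of 5 kb it was 0.998, so the direction in peak number depends on these settings.

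Covered length gave a larger difference than the number of peaks. Deleted peaks in members covered 4677 kb and control peaks 3770 kb, a ratio of 1.24, close to the 1.25 of the 300 regions ranked next and above the 1.12 of all other joined regions. Over the 2 whole lists, with deleted peaks away from any control region included, distal coverage had a ratio of 1.601. A deleted peak in a member was 594 bases wide on average and a control peak 521 bases. Over single members the ratio of covered lengths had a median of 1.21 and ranged from 0.702 at Pnkd and Tmbim1 to 1.97 at Atg7. The ratio of peak numbers had a median of 1.06 and ranged from 0.333 at Pou3f3 to 1.77 at Bcl2l1.

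By number, 164 members had more deleted than control peaks, 100 had fewer and 36 had equal numbers. The 164 were 54.7% and the 100 were 33.3% of members, against 56.7% and 32.2% of regions with 10 or more control peaks and 14.3% and 48.2% of all joined regions. By covered length, 273 of 300, or 91%, had more in the deleted list, against 90.3% of regions with 10 or more control peaks and 47.6% of all. These shares of members are near those of dense regions in general. Among the 273 were 81 of the 100 members with fewer deleted peaks. They were 27% of members, against 24.2% of regions with 10 or more control peaks and 8.38% of all joined regions. In those 81 the deleted library had fewer but broader peaks. Merging was counted directly: 888 deleted peaks in members, or 11.3%, overlapped 2 or more control peaks, against 9.37% in the next 300 regions and 6.65% in all other joined regions. Regions of a single control peak leave hardly any room for such an overlap, which lowers the last of these shares. The 888 deleted peaks took up 1950 overlaps with control peaks, 26.96% of the 7234. In the other direction 530 control peaks, or 7.33%, overlapped 2 or more deleted peaks. Depth differed by 1.28 between the ChIP libraries, and its part in peak merging was not tested.

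**Figure D4:**
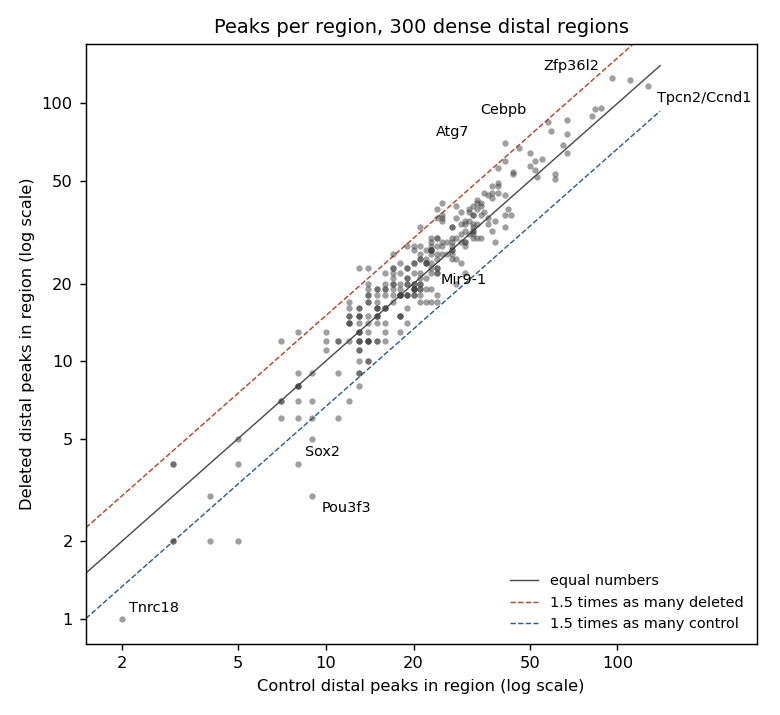
Deleted distal peaks (y axis, log scale) against control distal peaks (x axis, log scale) for the 300 members, with 1 point a member, the line of equal numbers and the lines of 1.5 times as many in either list. Most points lie between the dashed lines, Zfp36l2 (126 deleted and 96 control) lies above equality, and Tpcn2 (117 and 127), Sox2 (4 and 8) and Pou3f3 (3 and 9) lie below it.

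Few members differed by 1.5 times or more in peak number. The deleted list had at least 1.5 times as many peaks in 10 members, or 3.33%, against 6.41% of all 11688 joined regions and 4.75% of the 631 regions with 10 or more control peaks. These 10, named after their values had been seen, lay at Fyn, Atg7, Fzd9, Zfp710, Tpcn2 (the member ranked 249), Cacna1c, Arhgap26 with Fgf1, Bcl2l1, Slc13a3 and Chn2, and 8 of them were among the last 100 members. The control list had at least 1.5 times as many in 12 members, or 4%, against 42.8% of all joined regions and 3.65% of those with 10 or more control peaks. The 273 members with 10 or more control peaks are part of those 631. Among them the deleted list had 1.5 times as many in 8, or 2.93%, and the control list in 3, or 1.10%. Both shares are below those of the 631 regions. The 631 held a median of 15 control peaks and the 273 a median of 21, so the 2 sets are not alike in size.

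The 12 members with more control peaks were mostly short regions with few, broad peaks, and 9 of them had under 10 control peaks. They lay at Sox2, Tnrc18, both sides of Pou3f3, Ccnh, Sox6, Ptprz1, Tmem255b, Chd2, Btg2, Ptpa and Pnkd with Tmbim1. By covered length 0 members had 1.5 times as much in the control list, against 36.9% of all joined regions and 1.11% of those with 10 or more control peaks. The deleted list had 1.5 times as much in 29 members, or 9.67%, against 18.3% and 19.7%. The members' share was lower than both.

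The largest surplus in number was at Zfp36l2 (126 deleted and 96 control peaks), already described. Between Hrh1, a histamine receptor gene, and Atg7, an autophagy enzyme gene (rank 183, chr6:114495267-114632030), 70 deleted and 41 control peaks covered 23.3 kb and 11.8 kb, the highest ratio of covered lengths among members. Beside Cebpb, a leucine zipper transcription factor gene (rank 57, chr2:167698135-167861153), there were 85 deleted and 58 control peaks over 31.8 kb and 19.5 kb, in an interval with 11 long noncoding RNA genes. In Kirrel3, a cell adhesion gene of neurons (rank 41, chr9:34938101-35035147), 67 and 46 peaks covered 34.8 kb and 21.1 kb. Control peaks were not lost to the same extent in these regions: a deleted peak overlapped 33 of 41 at Atg7, 41 of 58 at Cebpb and 38 of 46 at Kirrel3.

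Sergef (rank 13), with 86 deleted and 67 control peaks, Lmf1, a lipase maturation factor (rank 43), with 60 and 41, and Ksr1, a scaffold of the Raf-MEK-ERK kinases (rank 127), with 56 and 39, complete the 8 largest surpluses together with Septin9. At Ksr1 the highest fold enrichment was lower in the deleted list, 5.71 against 7.67 in the control list, and at Cebpb likewise, 6.83 against 9.48. In the other 6 of the 8 the highest fold enrichment was higher in the deleted list, as at Kirrel3, with 9.57 in deleted and 7.67 in control cells, and Zfp36l2, with 11.2 and 10.3.

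The largest deficits were smaller than the largest surpluses. Besides Tpcn2 (117 deleted and 127 control peaks) and Vac14 (53 and 61), they were at Arhgap26 and Spry4, a feedback inhibitor of receptor tyrosine kinases (rank 23, 51 and 61), Myt1, a zinc finger factor of neural differentiation (rank 64, 29 and 38), Egfl7 (rank 33, 33 and 41), Cd93 (rank 114, 20 and 28), Fbln2 (rank 139, 22 and 30) and Zmynd8, a reader of acetylated chromatin (rank 22, 17 and 24). Of these 8, Cd93 alone had less covered length in the deleted list, 11.1 kb against 12.2 kb in the control list. The member beside Egfl7 has Notch1 on its other side, 10.4 kb from the member. In it the fewer deleted peaks covered 30.2 kb and the control peaks 22.8 kb.

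**Figure D5:**
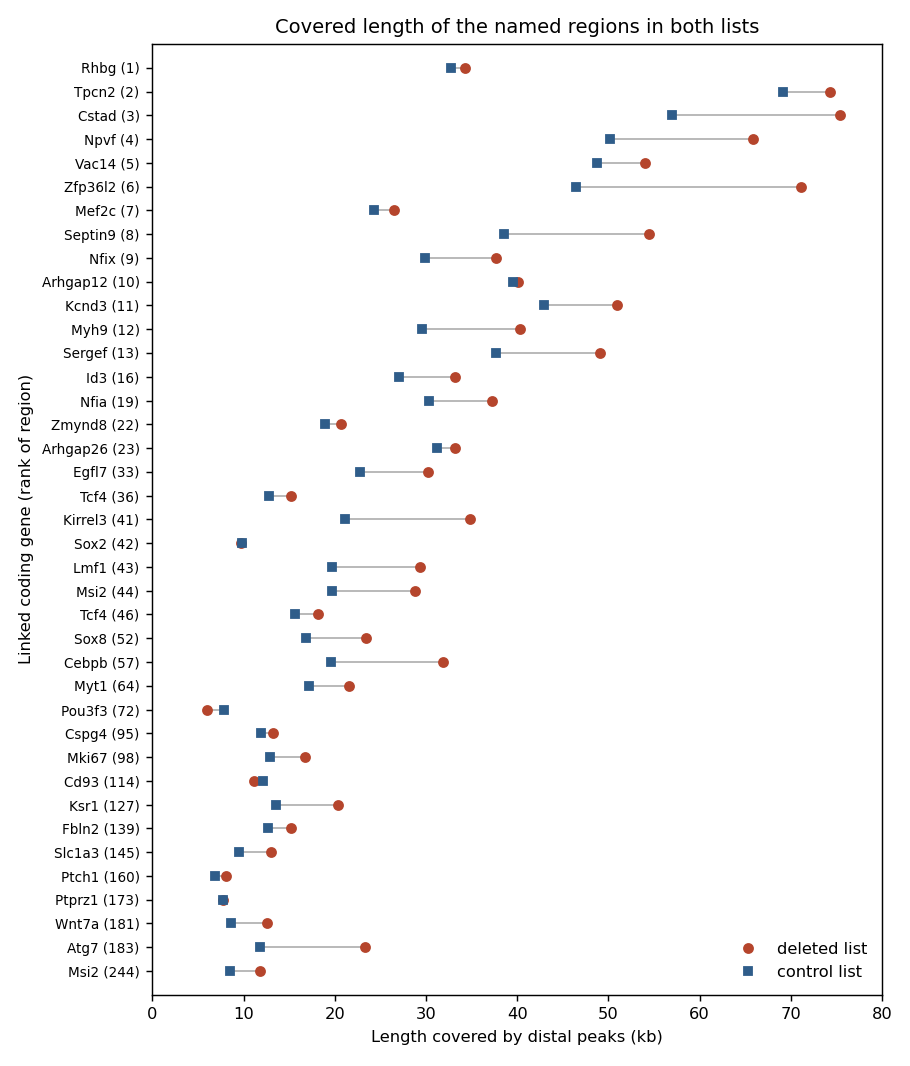
Length covered by distal peaks (x axis, kb) in the deleted (red circles) and control (blue squares) lists for the members named by rule, ordered by rank from top to bottom. The deleted value is to the right of the control value in most rows, farthest at Zfp36l2 (71.2 and 46.4 kb), and to the left at Sox2, Pou3f3 (rank 72) and Cd93.

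Control peaks in members were found again more often than other distal peaks. A deleted peak overlapped 5822 of 7234 control peaks in members, or 80.5% (79.5 to 81.4), and 65.2% of control peaks in other joined regions. The value was 77.0% in the 300 regions ranked next. Of the deleted peaks in members 67.6% overlapped a control peak, against 65.5% in the next 300 regions and 71.7% in all other joined regions. The last share is raised by the counting. In the control list 50.2% of joined regions were a single peak, and a deleted peak counted there overlaps it by rule. The 2548 other deleted peaks in members were in the deleted list only. The part of chance overlap, which grows with the covered share of a region, was not tested.

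At like enrichment below 6, members again had the higher share for control peaks and the lower one for deleted peaks. The counting raises the deleted share of other joined regions here too. Among peaks with a fold enrichment of 3 to under 4, the deleted peaks shared with the control list were 53.0% in members and 62.4% in other joined regions, and the control peaks shared with the deleted list were 67.7% and 53.5%. From 4 to under 6 these were 83.9% and 87.8% for deleted peaks, and 89.7% and 80.8% for control peaks. In the next 300 regions the deleted shares of these bands were 51.3% and 83.7%, and the control shares 65.1% and 86.9%. At 6 or more, 989 of 990 deleted and 966 of 974 control peaks in members were shared. The local background of the input lay above the floor of its list for 17.6% of deleted and 19.2% of control peaks in members, against 19.3% and 18.97% in other joined regions. The share of peaks above the floor thus differed little between members and other regions.

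The ranking of the members was largely kept in the deleted list. Of the 300 members 250, or 83.3% (78.6 to 87.4), overlapped one of the 300 highest regions built from the deleted list. The share was 20.7% in the 300 regions ranked next and 4.02% in all joined regions. It was 47.4% in regions with 10 or more control peaks, members included. Such an overlap was found for 100 of the first 100 members, 89 of the next 100 and 61 of the last 100. The other 50 members had a median deleted rank of 378.5, 45 of them were within the first 600, and the lowest was the region in Gpm6a, a neuronal membrane glycoprotein gene, at 1213. Gpm6a ranked 297 in the control list, with 12 deleted and 12 control peaks over 5.75 kb and 6.11 kb. The Spearman correlation between deleted and control scores over the 300 members was 0.878, a description only, since both scores come from the same intervals.

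Many members held noncoding genes. Of the 300, 144 overlapped a long noncoding RNA gene, a count that was not made for other regions of the control list. A control peak within 1 kb of an end of one was found in 132 members, or 44%. The share was 30% in the 300 regions ranked next and 10.02% in all other joined regions. Counted per peak the shares were alike, with 476 control peaks or 6.58% in members and 6.28% in other regions, so the higher share of members goes with their number of peaks. The 132 members had 3955 deleted and 3597 control peaks, or 1.10 to 1 (1.05 to 1.15), and the other 168 had 3915 and 3637, or 1.08 to 1 (1.03 to 1.13). The intervals overlap. Members that overlapped a coding gene had a ratio of 1.09 and those between genes 1.08.

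RefSeq promoter windows run from 250 bases before a start to 50 after it. Whole windows were compared with members and peaks. Only the 250 bases before the start were searched for 5 short motifs, on both strands. Of 288 windows in members, 153 windows of 118 genes were at distal peaks of both lists, 33 at a deleted peak only and 12 at a control peak only. Genes with several starts gave several overlapping windows. The E-box CAGCTG was in 20.3% of the 153 windows, 17.5% of 704 such windows outside members and 13.0% of all 31396 windows. The other E-box searched, CAGATG, was in 14.4%, 10.9% and 14.53%, and the Sox motif ACAATG in 11.1%, 9.66% and 10.3%. The AP-1 motif TGANTCA was in 12.4%, 7.24% and 6.77%, and the full palindromic Nfi motif in 0%, 0% and 0.0382%. These shares describe promoters inside members, not the enhancer peaks, whose sequence was not analysed here.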

How the data were processed

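H3K27ac ChIP-seq of 1 Smchd1-deleted and 1 Smchd1-control neural stem cell culture was analysed from 2 peak lists. Reads were aligned with Bowtie 0.12.9 to mm10 after bcl2fastq, and peaks called with MACS2 2.1.0.20140616, per the submitters' processing notes. Per the file headers, MACS2 kept 1 tag per position and a q-value limit of 0.05, and the input of the same culture served as background. For every peak the deposited lists hold the pileup signal at the summit, its fold enrichment, and p and q as −log10 values, from the authors' run. Fold enrichment is a ratio to the local input background or, for most distal peaks, to a floor of the list. Peak widths and positions are also the authors', and no more than these lists was used. No scaling between libraries was done, and deeper libraries pass weaker peaks.

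Members were built by the rule in the opening, from the control list and 20665 coding genes of RefSeq (GRCm38.p6, which shares its primary chromosomes with mm10). That table has no strand, so either gene end was treated alike. A deleted peak was counted when at least 1 base overlapped a member. Covered length is the summed width of the peaks counted. Intervals are exact Clopper-Pearson 95% intervals, turned into ratios where needed. They cover counting error only, while neighbouring peaks and members are not independent. No test between conditions is possible with 1 library a group, so counts stand beside the same over all joined regions. Members, gene lists and rules were chosen with earlier results of these data known. Named members are the 12 of highest score, the 8 with the largest surplus and the 8 with the largest deficit of deleted peaks, and up to 8 linked to each of 3 lists; others are named as chosen after their values were seen. The 12 lists hold 202 genes. Alternatives changed the gap, the gene-end distance, the score, the number kept, the choosing list and the peak threshold. Joining and counting were tested on simulated peaks. Python 3.11.15 with numpy 2.4.6, pandas 2.3.3, scipy 1.17.1 and matplotlib 3.10.9 was used.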

Additional observations from a re-analysis of the deposited data

Results flagged for a closer look

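The X chromosome lay outside the rule, and joined distal regions there reached the score of the autosomal member ranked 300. This was the case for 3 regions of the deleted list and 1 of the control list, each against the limit of its own list. The 3 deleted regions overlapped Xist, Jpx and Ftx, noncoding genes of the X-inactivation centre (chrX:103481225-103564647, 26 deleted and 23 control peaks), Gpm6b, a membrane glycoprotein gene of neural cells (chrX:166254068-166370637, 58 and 14), and Mid1, a ubiquitin ligase gene (chrX:169972964-170020039, 23 and 21). They would have ranked 38, 48 and 216 among autosomal regions of the deleted list. The control region lay at Ftx (chrX:103525853-103563436, 16 deleted and 17 control peaks) and would have ranked 170. X held 498 deleted and 235 control distal peaks in 174 and 104 joined regions. The cells carry Xist deltaA on 1 X and the lists are not split by allele, so these counts do not say which X carries the peaks.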

How the results depend on the processing

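The ratio of deleted to control peaks in the members, 1.09, stayed above 1 in 10 of 15 alternatives without moving beyond its interval. It turned round to 0.835 with the deleted list cut to the control length, 0.945 among peaks of fold enrichment 5 or more and 0.998 with a gap of 5 kb, and moved to 1.27 in regions chosen from the deleted list and 1.24 for covered bases. The share of members with 1.5 times as many deleted peaks, 3.33%, was 0% in lists of equal length, 14.3% among peaks of fold enrichment 5 or more, 12.7% at −log10 q of at least 5, 1% with 100 regions kept, 21.7% in regions chosen from the deleted list and 9.67% for covered bases. The share with 1.5 times as many control peaks, 4%, was 16%, 22%, 8%, 1.67% and 0% with lists of equal length, fold enrichment 5 or more, a gap of 5 kb, regions chosen from the deleted list and covered bases. The percentage of control peaks overlapped by a deleted peak, 80.5%, was 71.4% in lists of equal length, 72.2% among peaks of fold enrichment 5 or more, 69.3% with at least 50% overlap, 85.1% with a gap of 5 kb, 82.6% with 100 and 79.4% with 600 regions kept, 82.2% in regions chosen from the deleted list and 79.3% with promoter windows also dropped. The share of members among the 300 highest deleted regions, 83.3%, was 67.7% among peaks of fold enrichment 5 or more and 73% with 100 regions kept in both lists. The share linked to neural transcription factors, 7%, was 11% with 100 regions kept. Cutting lists and raising thresholds leave fewer peaks by construction, and the cause of the other shifts was not tested. Dropped promoter windows and covered bases were chosen after seeing the data. No paired analysis was possible because each group has 1 ChIP library. Replicates could not be left out for the same reason, and the depth ratio of 1.28 limits every comparison of peak numbers.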

Other observations

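Regions chosen from the deleted list by the same steps add to the picture of the members. Of these 300 regions 242, or 80.7%, overlapped a member and 58 did not, and each of the 58 contained at least 1 control peak. The following were chosen after their values had been seen. Rad51b, a DNA repair gene, had 66 deleted and 31 control peaks over 24.8 kb and 12.3 kb (chr12:79646392-79818872) and ranked 76 among deleted and 386 among control regions. Ntrk2, the receptor of the neurotrophin BDNF, had 41 and 22 peaks (chr13:58996592-59098718), with ranks 123 and 332. Kcnn3, a calcium-activated potassium channel gene, had 45 and 12 peaks over 17.2 kb and 4.48 kb (chr3:89548431-89664453), with ranks 183 and 903. Notch1, a receptor that maintains neural progenitors, had 12 deleted and 16 control peaks over 11.4 kb and 6.96 kb (chr2:26463290-26498731), with ranks 146 and 305. Of the 58 regions, 9 had no control region within the first 600 ranks. These regions were chosen for high deleted values, as the members were for high control values, so a surplus in them is in part fixed by the choice.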
